A study of Mus musculus with 3 samples.

Results

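The genes described here encode the proteasome and the proteins that build and gate it. They were the 47 of 20586 genes in the deposited count table whose symbol starts with Psma, Psmb, Psmc, Psmd, Psme or Psmg followed by a digit, and the rule left out Psmb8 and Psmb9. The rule used symbols and no measured value, though it was set with earlier results of these data known. By role they were 17 core particle genes (8 alpha and 9 beta), 17 regulatory particle genes (6 ATPases, 3 other base subunits and 8 lid subunits), 5 activator genes and 7 assembly chaperone genes. The remaining gene, Psmc3ip, encodes a partner of Psmc3 that acts in meiotic recombination and is no proteasome subunit, although its symbol meets the rule. A UMI (unique molecular identifier) marks 1 captured transcript, and CPM, the unit of all levels here, is the UMI sum of a gene over the cells of a library after every library was scaled to the same total. Of the 47 genes, 44 were at 10 CPM or more in every library. Psma8 (an alpha subunit of the testis), Psmb11 (a beta subunit of the thymus cortex) and Psmc3ip were below it in all 3 libraries, and they are left out of the counts between libraries.

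The proteasome degrades proteins that carry ubiquitin chains. Its core particle is a barrel of alpha and beta rings with the proteolytic sites on the inner face of the beta rings, and its regulatory particle binds, unfolds and de-ubiquitinates substrates before they enter. Other caps, the activators, open the core without needing ubiquitin, and in immune cells an immunoproteasome with exchanged catalytic subunits is known for producing peptides for antigen presentation. Microglia, the resident macrophages of the brain, raise immunoproteasome and activator genes when interferons reach them.

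Mouse thalamus was taken 4 hours after an intracerebroventricular injection, its CD45-positive cells (microglia and other leukocytes) were sorted, and each group gave 1 droplet single-cell RNA library. WT IL-33 came from Cx3cr1-creER heterozygous mice that received the alarmin IL-33. WT vehicle came from mice of the same genotype given vehicle. The cKO IL-33 group, also heterozygous for Cx3cr1-creER, was homozygous for the floxed ST2 allele and received IL-33. ST2, encoded by Il1rl1, is the receptor chain that binds IL-33, and Cx3cr1, which drives the inducible recombinase, is expressed in microglia and other macrophages. All 3 groups thus carried the recombinase allele. A floxed group given vehicle was not analysed here, and the labels used here give neither ages nor the number of animals pooled in a library. Since a group is a single library, differences have no replicate check and none was tested, and every interval in parentheses is an exact 95% interval that covers counting error only.

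Libraries held 2202 to 2709 cells and 12127214 to 18269042 UMIs, and WT IL-33 was the shallowest, with a median of 3951 UMIs per cell against 5544 in WT vehicle and 5119 in cKO IL-33. At least 3 of 8 microglial markers were detected in 7595 of 7598 cells, and 2 barcodes recurred between libraries. Summed markers of T and NK cells, B cells, monocytes and neutrophils, neurons, astrocytes and choroid plexus were each at 0 to 13.8 CPM, and those of oligodendrocytes at 33.1 to 37.4 CPM. Border macrophage markers summed to 75.4 CPM in WT vehicle, 11.0 CPM in WT IL-33 and 85.9 CPM in cKO IL-33. Of the 3 dendritic markers, Siglech, which microglia also express, made up nearly all of the 897 to 1772 CPM, and Clec9a was at 0. Il1rl1, the gene targeted in the cKO, was at 11.6 CPM (10.1 to 13.3) in WT vehicle, 5.77 CPM (4.50 to 7.29) in WT IL-33 and 12.8 CPM (11.2 to 14.6) in cKO IL-33, and since 3' tags can lie outside deleted exons these values do not check the genotype. Cells with an Xist UMI numbered 8 of 2709 in WT vehicle, 1107 of 2202 in WT IL-33 and 2648 of 2687 in cKO IL-33, so the libraries differed in sex as well as in treatment and genotype. Both Xist and Y-linked UMIs were in 305 cells of WT IL-33, 7 of WT vehicle and 3 of cKO IL-33.

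Summed over the 47 genes, the proteasome took 0.363% of all UMIs in WT vehicle, 0.490% in WT IL-33 and 0.340% in cKO IL-33. WT IL-33 was therefore the library with the highest summed level, 1.35-fold (1.34 to 1.37) above WT vehicle. The sum of cKO IL-33 was 1.44-fold (1.43 to 1.46) below WT IL-33 and 1.07-fold (1.06 to 1.08) below WT vehicle. Between WT IL-33 and WT vehicle, 19 of the 44 measured genes were at least 1.5-fold higher and 1 was at least 1.5-fold lower. Among all 8814 genes at 10 CPM or more in either of those libraries, 23.2% were that much higher and 20% that much lower. The median log2 ratio (with 1 CPM added to each value) was 0.46 over the measured proteasome genes and 0.05 over all genes. The other 24 measured genes lay within 1.5-fold of vehicle in either direction.

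Between cKO IL-33 and WT IL-33, 20 of 44 measured genes were at least 1.5-fold lower and 1 was higher, with 19.2% of 8853 genes lower and 21.4% higher in the background. The median log2 ratio was -0.53 over the proteasome genes and 0.00 over all genes. Between cKO IL-33 and WT vehicle, 1 of 44 was at least 1.5-fold higher and 0 were lower, beside 2.35% and 1.55% of 8495 genes, and the medians were -0.07 and 0.06. Each library enters 2 of these 3 comparisons, so the counts are not independent of one another. Nearly all cells of cKO IL-33 and nearly none of WT vehicle held Xist, so the comparison of these libraries cannot be told apart from sex. The gene that was the exception in all 3 comparisons was Psme2b.

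**Figure D1:**
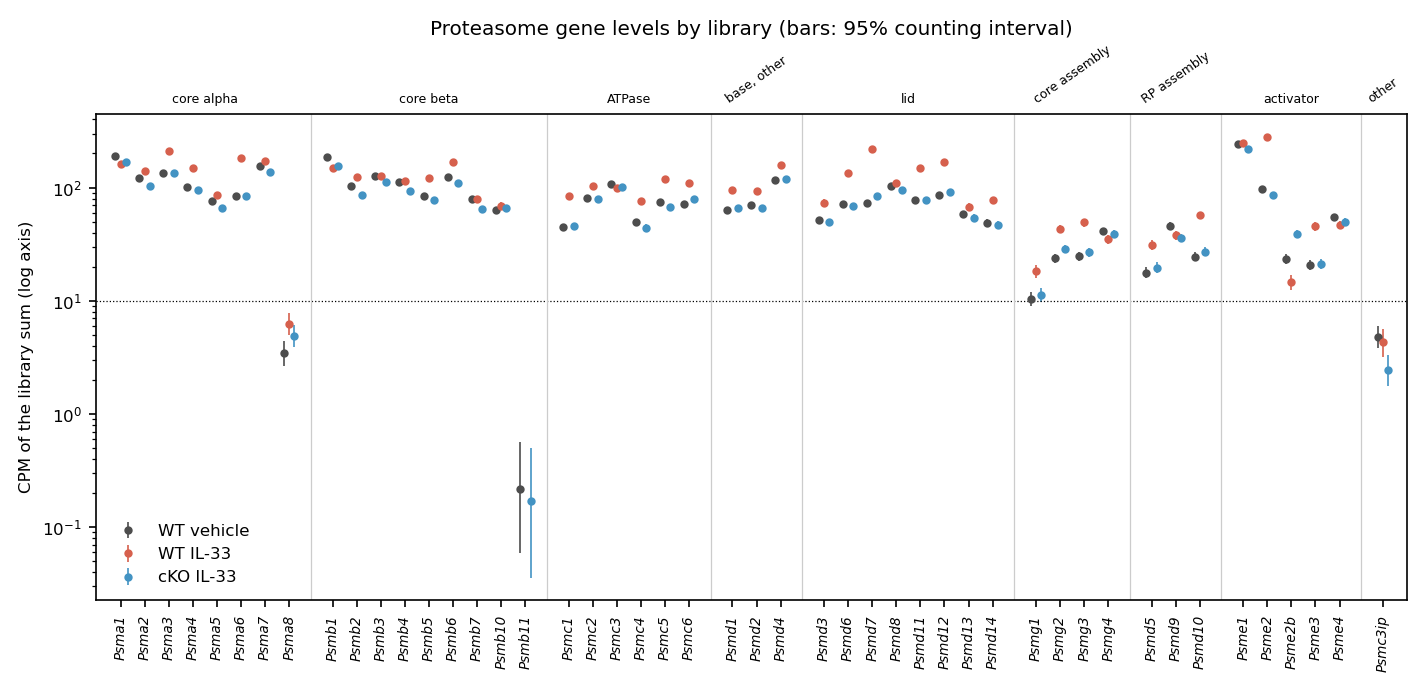
Level of each of the 47 proteasome genes in the 3 libraries, in CPM on a log axis, grouped by role. Points are library sums, bars are 95% counting intervals, and the dotted line is the minimum of 10 CPM, below which Psma8, Psmb11 and Psmc3ip lie in every library. Psmb11 has no WT IL-33 point because it had 0 UMIs there (exact upper limit 0.304 CPM), which a log axis cannot show.

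**Figure D2:**
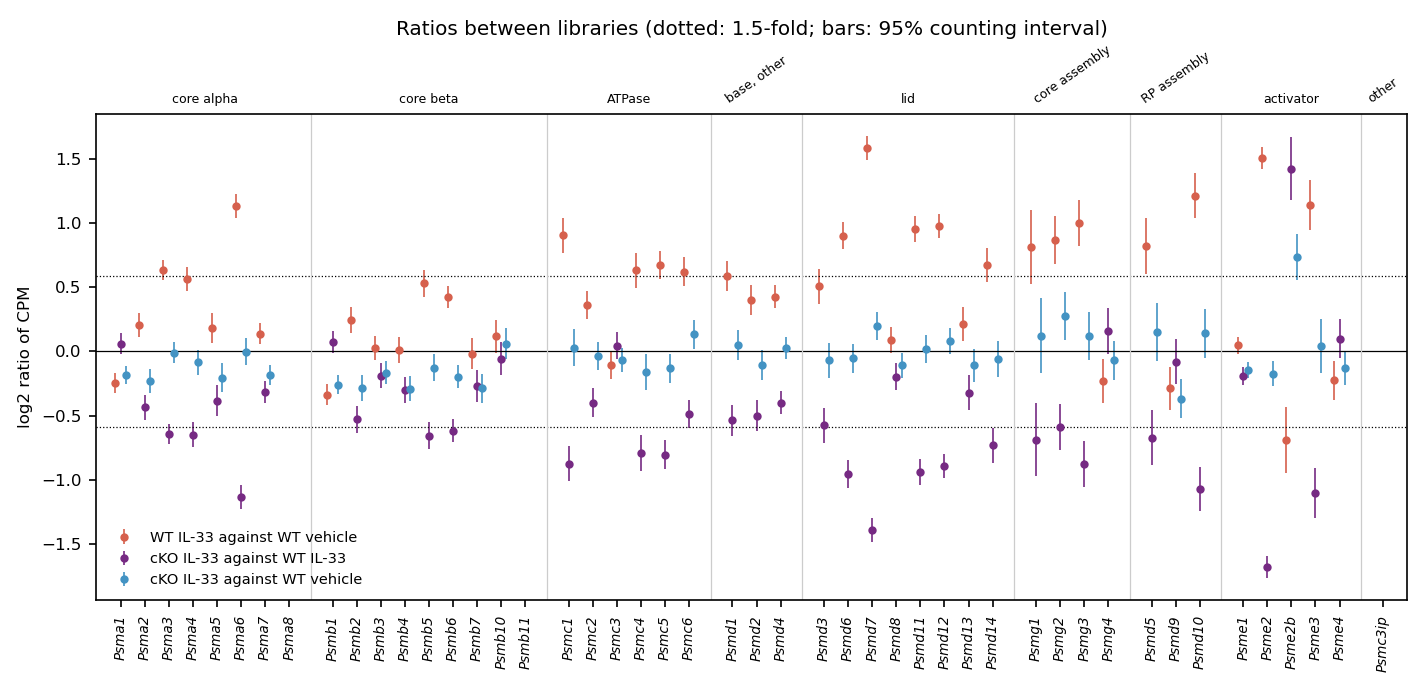
Log2 ratio of CPM between pairs of libraries for the 44 measured proteasome genes, grouped by role, with 95% counting intervals and dotted lines at 1.5-fold. In WT IL-33 against WT vehicle, 10 of 17 regulatory particle genes and 5 of 7 assembly genes lie above the upper line, against 2 of 15 core genes. Of all genes at the minimum, 23.2% were that much higher. The 3 genes below the minimum have no points.

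Between WT IL-33 and WT vehicle the core particle had the smallest ratio of the 4 roles. Its summed level was 1749.6 CPM in WT vehicle, 2057 CPM in WT IL-33 and 1557 CPM in cKO IL-33, which put WT IL-33 1.18-fold (1.16 to 1.20) above WT vehicle. Between cKO IL-33 and WT vehicle the core differed most, at 1.12-fold (1.11 to 1.14) below vehicle, where activators were at 0.950 of vehicle, regulatory particle genes at 0.990, and the interval of the assembly genes was 0.954 to 1.05. At 1.5-fold, 2 of 15 measured core genes were higher in WT IL-33 than in vehicle, both of them alpha subunits, and 0 were lower, each a smaller share than the 23.2% and 20% of all genes. Alpha genes summed to 1.28-fold (1.25 to 1.31) of vehicle and beta genes to 1.08-fold (1.05 to 1.10). The median log2 ratio was 0.20 for alpha and 0.07 for beta genes, beside the 0.05 of all genes.

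Psma6, an alpha subunit, had the largest ratio of the core. It was at 83.7 CPM in WT vehicle, 183 CPM in WT IL-33 and 83.7 CPM in cKO IL-33. WT IL-33 was thus 2.19-fold (2.05 to 2.34) above vehicle, and the other 2 libraries did not differ beyond counting error, with a ratio of 0.999 (0.930 to 1.07). Psma3, another alpha subunit, was at 136 CPM in WT vehicle, 210.3 CPM in WT IL-33 and 135 CPM in cKO IL-33, 1.55-fold (1.47 to 1.64) above vehicle. Psma4 was at 101 CPM in WT vehicle, 149 CPM in WT IL-33 and 95.1 CPM in cKO IL-33, and its ratio of 1.48-fold (1.38 to 1.58) lay just under the threshold. Psma3 and Psma4 each overlap a non-coding or uncharacterised gene of the table on the opposite strand, and the sources used here do not say whether the counting used strand. The other measured core genes, Psma1, Psma2, Psma5, Psma7, Psmb2, Psmb3 and Psmb4, had ratios of 0.844 to 1.18.

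Of the beta subunits with a catalytic site, Psmb5 (chymotrypsin-like) was at 84.4 CPM in WT vehicle, 122 CPM in WT IL-33 and 77.3 CPM in cKO IL-33, and WT IL-33 was 1.44-fold (1.34 to 1.55) above vehicle. Psmb6 (caspase-like) was at 125 CPM in WT vehicle, 167 CPM in WT IL-33 and 109 CPM in cKO IL-33, 1.34-fold (1.26 to 1.42) above vehicle. Psmb7 (trypsin-like) was at 79.5 CPM in WT vehicle, 78.6 CPM in WT IL-33 and 65.2 CPM in cKO IL-33, a ratio of 0.988-fold (0.910 to 1.07). The catalytic genes therefore did not share 1 ratio: the interval of Psmb7 lies below those of Psmb5 and Psmb6. Psmb10, which takes the place of Psmb7 in the immunoproteasome, was at 63.7 CPM in WT vehicle, 69.0 CPM in WT IL-33 and 66.4 CPM in cKO IL-33, with a ratio of 1.08-fold (0.991 to 1.19) that includes 1. Psmb1, a beta subunit with no catalytic site, was at 186 CPM in WT vehicle, 148 CPM in WT IL-33 and 156 CPM in cKO IL-33, and WT IL-33 was 1.26-fold (1.19 to 1.34) below vehicle. Psmb7 shares its last transcript bases with the neighbouring gene Nek6, and Psmb10 overlaps Gm16156 on the other strand. Copies of Psma4, Psma5, Psmb3, Psmb5 and, among the regulatory particle genes, Psmc1 and Psmd2 that match at 95% or more of at least 200 of the last 500 transcript bases lie in pseudogenes outside the table, so their counts are uncertain to that extent.

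Promoters of Psmb5, Psmb6 and Psma6 are shown because the first 2 hold the letters of the antioxidant response element, the sequence through which Nfe2l1 and Nfe2l2 are known to act on proteasome genes, and because Psma6 had the largest ratio of the core. They are windows of 200 bases upstream of the start from RefSeq (GRCm38.p6), printed 5′ to 3′ on the gene's strand, with motif matches in capitals. Relative to the start, the window runs from -227 to -28 for Psmb5 and from -200 to -1 for Psmb6 and Psma6. For Psmb5 (chr14:54618023-54618222, minus strand) and Psmb6 (chr11:70525157-70525356, plus strand) the capitals mark TGACNNNGC. For Psma6 (chr12:55384022-55384221, plus strand) they mark CCAAT or its reverse complement.
Psmb5: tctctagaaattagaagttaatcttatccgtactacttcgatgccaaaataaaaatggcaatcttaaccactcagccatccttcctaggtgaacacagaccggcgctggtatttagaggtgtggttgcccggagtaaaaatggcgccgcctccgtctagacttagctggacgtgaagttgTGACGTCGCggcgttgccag
Psmb6: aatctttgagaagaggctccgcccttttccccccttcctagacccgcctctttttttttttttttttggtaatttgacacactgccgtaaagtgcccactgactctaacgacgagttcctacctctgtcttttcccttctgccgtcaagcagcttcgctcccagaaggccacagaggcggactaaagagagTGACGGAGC
Psma6: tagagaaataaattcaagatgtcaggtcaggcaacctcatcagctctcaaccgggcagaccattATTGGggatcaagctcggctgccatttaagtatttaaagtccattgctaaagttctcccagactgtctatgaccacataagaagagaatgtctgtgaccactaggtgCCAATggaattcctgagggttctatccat

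RefSeq promoters of 300 bases (250 before to 50 after the start) matched 39 of the 47 genes, and Psmd7 and Psmg2 were among the 8 not matched. TGACNNNGC, searched on both strands, was in 6 of 39 (15.4%), namely Psmb5, Psmb6, Psmc6, Psmd9, Psmd12 and Psme4, beside 14.0% of all 27025 genes with a promoter counted the same way and 12.4% of all 32851 promoters. CCAAT was in 14 of 39 (35.9%) against 41.1% of genes. The interferon-stimulated response element (GAAA and GAAA with NN between them) was in 5 of 39 (12.8%), namely Psmb3, Psmd4, Psmd9, Psme1 and Psmg4, against 3.99% of genes. The gamma-activated site TTCNNNGAA was in Psmd2 and Psmg1 (5.13% against 9.55% of genes), and the NF-kB letters (GGG and TTTCC with NN between them) were in 0 of 39 against 1.89% of genes. In WT IL-33 against vehicle the median log2 ratio was 0.46 over all measured members. It was 0.02 over the genes with the interferon element, 0.47 with the antioxidant element and 0.57 with the gamma-activated site. For CCAAT it was 0.39, but that median includes Psmb11 and Psmc3ip, which were below 10 CPM and are not in the 0.46. A match describes these letters only, and no match says only that they are not in this window.

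Regulatory particle genes differed more. Their summed level was 1247 CPM in WT vehicle, 1934 CPM in WT IL-33 and 1234 CPM in cKO IL-33, so WT IL-33 was 1.55-fold (1.52 to 1.58) above vehicle and cKO IL-33 1.57-fold (1.54 to 1.60) below WT IL-33. Of the 17 genes, 10 (58.8%) exceeded vehicle by 1.5-fold or more in WT IL-33 and 0 were lower, beside 23.2% and 20% of all genes. Lid genes summed to 1.75-fold (1.71 to 1.80) of vehicle, ATPases to 1.38-fold (1.34 to 1.43) and the other base genes to 1.38-fold (1.32 to 1.43). Regulatory particle UMIs per core UMI were 0.713 (0.701 to 0.725) in WT vehicle, 0.940 (0.924 to 0.957) in WT IL-33 and 0.793 (0.779 to 0.807) in cKO IL-33. The balance of the sums thus lay towards the regulatory particle in WT IL-33, and cKO IL-33 lay between the other libraries.

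Psmd7, a lid subunit that pairs with the de-ubiquitinase Psmd14, had the largest ratio between WT IL-33 and WT vehicle of the 44 measured genes. It was at 73.0 CPM in WT vehicle, 218 CPM in WT IL-33 and 83.6 CPM in cKO IL-33. WT IL-33 was 2.99-fold (2.80 to 3.20) above vehicle, cKO IL-33 was 2.61-fold (2.45 to 2.79) below WT IL-33, and cKO IL-33 was 1.14-fold (1.06 to 1.23) above vehicle, an interval that does not include 1. Without Psmd7 the regulatory particle sum was 1.46-fold (1.43 to 1.49) of vehicle and the lid sum 1.57-fold (1.53 to 1.62), so most of the difference did not come from this gene. Psmd14, which removes the ubiquitin chain, was at 49.0 CPM in WT vehicle, 78.1 CPM in WT IL-33 and 47.1 CPM in cKO IL-33, 1.59-fold (1.45 to 1.75) above vehicle. Psmd12, a scaffold subunit of the lid, was at 86.2 CPM in WT vehicle, 169 CPM in WT IL-33 and 91.4 CPM in cKO IL-33, 1.96-fold (1.84 to 2.10) above vehicle. Psmd11, another lid scaffold subunit, was at 76.9 CPM in WT vehicle, 149 CPM in WT IL-33 and 77.8 CPM in cKO IL-33, 1.94-fold (1.80 to 2.08) above vehicle. In all of these the cKO IL-33 value lay closer to vehicle than to WT IL-33.

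Psmd4, a ubiquitin receptor of the base, was at 117 CPM in WT vehicle, 157 CPM in WT IL-33 and 119 CPM in cKO IL-33, and at 1.34-fold (1.26 to 1.43) above vehicle it stayed under the threshold. Among the ATPases, which thread the substrate into the core, Psmc1 was at 44.6 CPM in WT vehicle, 83.4 CPM in WT IL-33 and 45.5 CPM in cKO IL-33, 1.87-fold (1.70 to 2.05) above vehicle. Psmc5 was at 74.5 CPM in WT vehicle, 118 CPM in WT IL-33 and 68.0 CPM in cKO IL-33, 1.59-fold (1.48 to 1.71) above vehicle. Psmc4 was at 49.3 CPM in WT vehicle, 76.4 CPM in WT IL-33 and 44.2 CPM in cKO IL-33, 1.55-fold (1.41 to 1.70) above vehicle. ATPases were not uniform, since Psmc3 had a ratio of 0.928-fold (0.863 to 0.997), which lies just below 1. The others past 1.5-fold were Psmd6, at 1.87-fold, Psmc6, at 1.54-fold, and Psmd1, at 1.5-fold with an interval of 1.38 to 1.63. Psmc2, Psmd2, Psmd3, Psmd8 and Psmd13 lay between 1.06-fold and 1.42-fold. Psmd12 overlaps Gm11722 and Psmd1 overlaps Htr2b in the annotation, whereas Psmd7, Psmd11, Psmd14 and the ATPases other than Psmc3 overlap no gene of the table. Psmc1 and Psmd2 nevertheless have the pseudogene copies described for the core genes, with up to 97.0% and 97.9% identity, and Psmd1 shares 305 bases with Gm21972, so their counts are uncertain too.

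The activators split. Their summed level was 438 CPM in WT vehicle, 633 CPM in WT IL-33 and 416 CPM in cKO IL-33, but without Psme2 and its near-copy Psme2b the sum was 1.08-fold (1.04 to 1.12) of vehicle. Psme2, the beta chain of the interferon-inducible activator ring, was at 97.7 CPM in WT vehicle, 277 CPM in WT IL-33 and 86.7 CPM in cKO IL-33. WT IL-33 was 2.84-fold (2.68 to 3.01) above vehicle and cKO IL-33 was 3.20-fold (3.01 to 3.40) below WT IL-33. Psme1, the alpha chain of the same ring, was at 242 CPM in WT vehicle, 249.7 CPM in WT IL-33 and 219 CPM in cKO IL-33, with a ratio of 1.03-fold (0.986 to 1.08) to vehicle. The chains of 1 ring thus had different ratios in these libraries. Psme3, which forms an activator ring of the nucleus, was at 20.6 CPM in WT vehicle, 45.4 CPM in WT IL-33 and 21.2 CPM in cKO IL-33, 2.20-fold (1.93 to 2.52) above vehicle. Psme4, a single-chain activator known from DNA repair and sperm maturation, was at 54.6 CPM in WT vehicle, 46.7 CPM in WT IL-33 and 49.997 CPM in cKO IL-33, and WT IL-33 was 1.17-fold (1.05 to 1.30) below vehicle.

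Psme2b went the other way. It was at 23.4 CPM in WT vehicle, 14.5 CPM in WT IL-33 and 38.9 CPM in cKO IL-33, from 427, 176 and 680 UMIs. WT IL-33 was 1.61-fold (1.35 to 1.93) below vehicle, and cKO IL-33 was 2.68-fold (2.27 to 3.18) above WT IL-33 and 1.66-fold (1.47 to 1.88) above vehicle. Its coding sequence differs from that of Psme2 at 5 of 720 bases, and the last 500 transcript bases are 99% identical, so reads of either gene can be counted for the other and both values are uncertain. Psme2b also overlaps Gm12185 and 9930111J21Rik1 on the same strand. Summed, Psme2 and Psme2b were at 121 CPM in WT vehicle, 291 CPM in WT IL-33 and 126 CPM in cKO IL-33, and WT IL-33 was 2.41-fold (2.28 to 2.54) above vehicle. The sum of cKO IL-33 and that of WT vehicle had a ratio of 1.04-fold (0.978 to 1.10). Psme2 lies at chr14:55587441-55591113 and Psme2b at chr11:48945354-48946190 (GRCm38). Bases 394 to 543 of each coding sequence are shown to let the likeness be seen, with the 3 differing bases in capitals.
Psme2: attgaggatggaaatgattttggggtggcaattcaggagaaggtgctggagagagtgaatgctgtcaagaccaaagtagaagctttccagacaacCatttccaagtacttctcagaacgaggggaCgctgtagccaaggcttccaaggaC
Psme2b: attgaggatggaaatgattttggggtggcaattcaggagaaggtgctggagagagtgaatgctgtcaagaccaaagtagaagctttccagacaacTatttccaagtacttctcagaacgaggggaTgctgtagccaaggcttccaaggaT

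Assembly chaperone genes were mostly higher in WT IL-33. Their summed level was 188 CPM in WT vehicle, 271 CPM in WT IL-33 and 188 CPM in cKO IL-33, with WT IL-33 1.44-fold (1.37 to 1.51) above vehicle. At 1.5-fold, 5 of 7 were higher and 0 lower, beside 23.2% and 20% of all genes. Psmd10, a chaperone of the regulatory base also called gankyrin, was at 24.5 CPM in WT vehicle, 56.8 CPM in WT IL-33 and 27.1 CPM in cKO IL-33, 2.32-fold (2.05 to 2.62) above vehicle. Psmg3, which helps form the alpha ring, was at 24.6 CPM in WT vehicle, 49.1 CPM in WT IL-33 and 26.8 CPM in cKO IL-33, 2.0-fold (1.76 to 2.26) above vehicle. Psmg2, which pairs with Psmg1 in the same step, was at 23.8 CPM in WT vehicle, 43.2 CPM in WT IL-33 and 28.7 CPM in cKO IL-33, 1.82-fold (1.60 to 2.07) above vehicle. Psmg1 and the base chaperone Psmd5 were 1.75-fold and 1.77-fold above vehicle. Psmg4, the partner of Psmg3, was 1.17-fold (1.04 to 1.32) below vehicle. Psmd9, another base chaperone, was 1.22-fold (1.09 to 1.37) below vehicle.

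Proteasome partners outside the family were taken from a list of 35 symbols, 32 of them in the table. At 10 CPM or more, 31 could be compared between WT IL-33 and vehicle, where 7 (22.6%) were at least 1.5-fold higher and 3 (9.68%) lower, beside 23.2% and 20% of all genes, so the higher share is near that of all genes. The median log2 ratio was -0.02. Pomp, the chaperone that matures the core, was at 363 CPM in WT vehicle, 208 CPM in WT IL-33 and 300.5 CPM in cKO IL-33, 1.75-fold (1.67 to 1.83) lower in WT IL-33 than in vehicle. Akirin2, which brings proteasomes into the nucleus, was at 162 CPM in WT vehicle, 71.7 CPM in WT IL-33 and 159.7 CPM in cKO IL-33, 2.26-fold (2.10 to 2.44) lower. These lay opposite to most assembly chaperones. Adrm1, a ubiquitin receptor of the regulatory particle, was at 28.5 CPM in WT vehicle, 55.7 CPM in WT IL-33 and 31.3 CPM in cKO IL-33, 1.95-fold (1.74 to 2.19) above vehicle. Ubqln4, which shuttles ubiquitinated proteins, was at 6.84 CPM in WT vehicle, 18.5 CPM in WT IL-33 and 7.67 CPM in cKO IL-33, 2.70-fold (2.16 to 3.39) above vehicle.

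Nfe2l1, the factor known to raise proteasome genes when proteolysis falls short, was at 76.1 CPM in WT vehicle, 168 CPM in WT IL-33 and 78.6 CPM in cKO IL-33, 2.20-fold (2.05 to 2.36) above vehicle. Nfe2l2, its relative in the oxidative stress response, was at 146 CPM in WT vehicle, 318 CPM in WT IL-33 and 204 CPM in cKO IL-33, 2.17-fold (2.07 to 2.28) above vehicle. They differ in cKO IL-33, where Nfe2l1 had a ratio of 1.03-fold (0.957 to 1.11) to vehicle and Nfe2l2 one of 1.39-fold (1.32 to 1.47). The others past 1.5-fold were Usp14, Txnl1 and Rad23b, which were higher, and Nub1, which was lower. Between cKO IL-33 and WT IL-33, 7 of 31 partners were lower and 2 higher, beside 19.2% and 21.4% of all genes. Between cKO IL-33 and vehicle 0 of 30 were past 1.5-fold in either direction, where 2.35% of all genes were higher and 1.55% lower.

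The second deposited table gives each cell 1 of 6 cluster numbers with no names. Cluster 1 held 1815 of the 2202 WT IL-33 cells but 20 WT vehicle and 35 cKO IL-33 cells, so it may be that library rather than a cell type, and only clusters with 50 cells or more in a library are given. The clusters were made from all genes, these included, so levels between clusters are a description. Within WT IL-33 the proteasome sum was 3977 CPM in cluster 0 (144 cells), 5002 CPM in cluster 1, 3186 CPM in cluster 2 (102 cells), 5099.6 CPM in cluster 3 (67 cells) and 4937 CPM in cluster 5 (59 cells). In WT vehicle it was 3676 CPM in cluster 0, 3118 CPM in cluster 2, 3614 CPM in cluster 3, 4250.2 CPM in cluster 4 and 3689 CPM in cluster 5. In cKO IL-33 the same clusters were at 3494, 3041, 3423, 4177 and 3709 CPM. Cluster 2 was the lowest in every library. Cluster 4, which had too few WT IL-33 cells, was the highest in WT vehicle and in cKO IL-33.

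**Figure D3:**
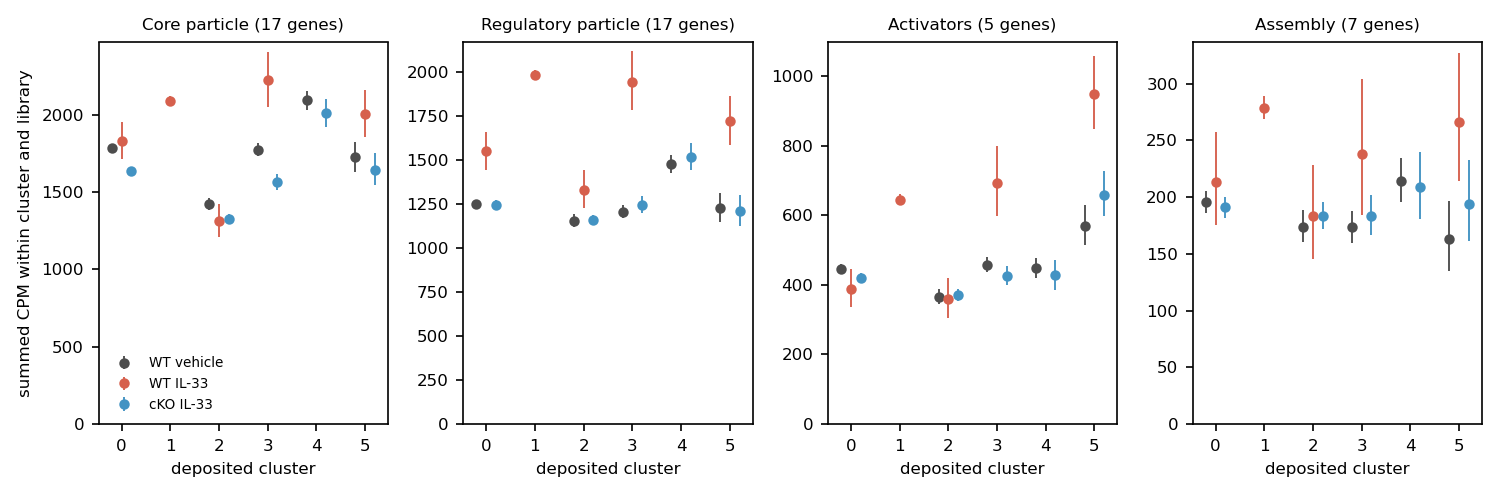
Summed CPM of the proteasome genes by role in each deposited cluster and library, with 95% counting intervals, for clusters with at least 50 cells in that library. WT IL-33 stands above the other libraries in the regulatory particle panel in clusters 0, 2, 3 and 5, and the activator panel is highest in cluster 5 of each library.

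Within clusters, WT IL-33 and WT vehicle could be set side by side in clusters 0, 2, 3 and 5. The proteasome sum of WT IL-33 was 1.08-fold (1.03 to 1.13) of vehicle in cluster 0, 1.02-fold (0.966 to 1.08) in cluster 2, 1.41-fold (1.33 to 1.49) in cluster 3 and 1.34-fold (1.26 to 1.42) in cluster 5. Core genes gave 1.03-fold (0.959 to 1.10), 0.922-fold (0.844 to 1.01), 1.25-fold (1.15 to 1.36) and 1.16-fold (1.06 to 1.28) in the same order, and regulatory particle genes 1.24-fold (1.15 to 1.33), 1.15-fold (1.05 to 1.26), 1.61-fold (1.47 to 1.76) and 1.40-fold (1.26 to 1.56). The regulatory particle interval lay above 1 in each of these 4 clusters, and the core interval in clusters 3 and 5. Psmd7 was higher in each, at 1.91-fold (1.47 to 2.44) in cluster 0, 2.13-fold (1.59 to 2.83) in cluster 2, 2.72-fold (1.98 to 3.66) in cluster 3 and 2.86-fold (2.01 to 4.09) in cluster 5. Psme2 was not: its ratio was 1.06-fold (0.790 to 1.40) in cluster 0 and 1.19-fold (0.821 to 1.69) in cluster 2, both with 1 inside the interval, but 2.44-fold (1.85 to 3.17) in cluster 3 and 2.34-fold (1.81 to 3.02) in cluster 5.

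In cluster 0, 4 of 44 measured genes (Psmd14, Psmd7, Psmc1 and Psmd6) exceeded vehicle by 1.5-fold or more in WT IL-33 with an interval that excluded 1, and Psmd1 was lower, beside 12.7% and 4.18% of 8495 genes. In cluster 2, 2 of 43 were higher and 1 lower, beside 10.1% and 3.36% of genes. In cluster 3, 13 of 45 were higher and 0 lower, beside 14.1% and 7.67% of genes. In cluster 5, 17 of 43 were higher and 0 lower, beside 12.9% and 12% of genes. The 144 cluster 0 cells of WT IL-33 had a median of 3230 UMIs against 5305 in vehicle. No thinned values are given for these ratios within clusters, and the part of depth in them was not tested.

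Between cluster 1 and cluster 0 of the WT IL-33 library, the activator sum differed more than the regulatory particle and core sums. By median log2 ratio the order was another. It was 0.48 over assembly genes, 0.33 over regulatory particle genes, 0.27 over activators and 0.12 over core genes. The activator sum was 1.66-fold (1.44 to 1.92) higher, the regulatory particle sum 1.28-fold (1.19 to 1.38) and the core sum 1.14-fold (1.07 to 1.22). At 1.5-fold with an interval excluding 1, Psmd1, Psmd7, Psmd11, Psmd3, Psme3, Psma6, Psme2 and Psmg2 were higher (8 of 44, beside 11.1% of 8617 genes) and Psme2b was lower (beside 14.2%). Psme2 was at 289.8 CPM in cluster 1 and 103 CPM in cluster 0, 2.82-fold (2.15 to 3.77) apart. Psme3 was at 47.8 CPM and 13.6 CPM, the second from 7 UMIs, a ratio of 3.52-fold (1.70 to 8.80).

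Cluster 5 had more Psme2 and Psmb10 than cluster 0 in each library. Its activator sum was 1.28-fold (1.15 to 1.42) that of cluster 0 in WT vehicle, 2.45-fold (2.05 to 2.94) in WT IL-33 and 1.57-fold (1.41 to 1.74) in cKO IL-33. Core sums had ratios of 0.967-fold (0.911 to 1.03), 1.09-fold (0.991 to 1.21) and 1.01-fold (0.943 to 1.07), all with 1 inside the interval. Psme2 was at 168 CPM in cluster 5 and 96.7 CPM in cluster 0 of WT vehicle, 392 and 103 CPM in WT IL-33, and 188 and 87.0 CPM in cKO IL-33. Psmb10, the immunoproteasome subunit, was at 94.6 and 63.3 CPM, 164 and 87.3 CPM, and 124 and 67.8 CPM in the same order, and its interval excluded 1 in each library. Psme1 was 2.15-fold (1.66 to 2.78) higher in cluster 5 in WT IL-33 and 1.48-fold (1.27 to 1.70) higher in cKO IL-33, with a ratio of 1.12-fold (0.962 to 1.29) in WT vehicle. With the interval rule 8 of 44 genes were higher in WT IL-33, 5 of 45 in cKO IL-33 and 2 of 44 in WT vehicle, beside 8.91%, 5.38% and 6.39% of all genes. The WT vehicle count, Psme2 and Psme2b, thus lay under the share of all genes.

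**Figure D4:**
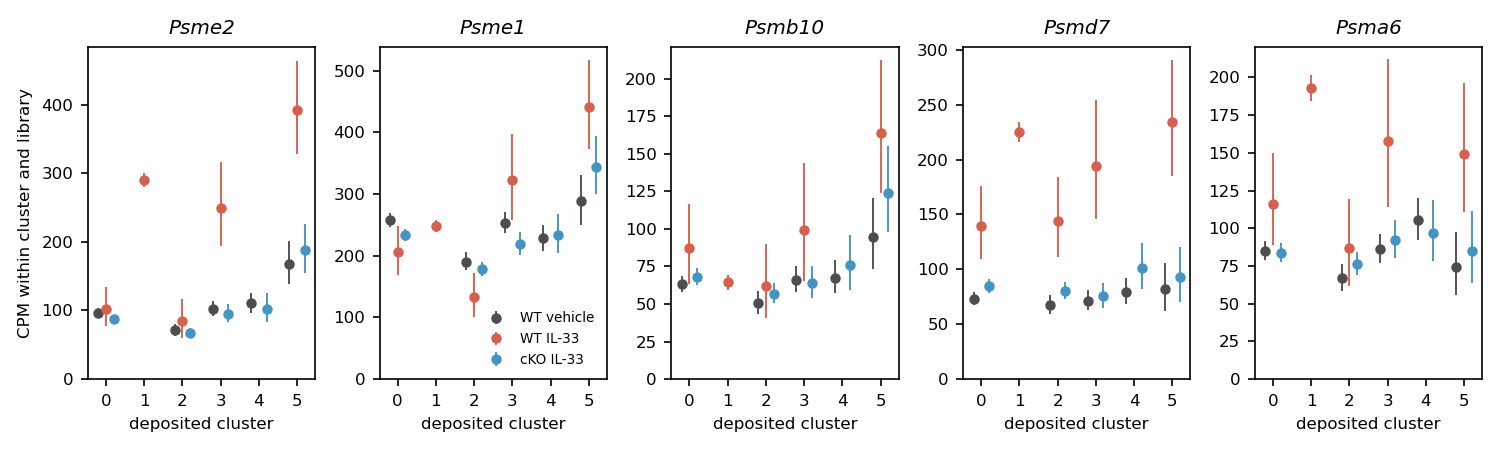
CPM of Psme2, Psme1, Psmb10, Psmd7 and Psma6 in each deposited cluster and library, with 95% counting intervals, for clusters with at least 50 cells. Psme2 and Psmb10 are highest in cluster 5 of each library, and Psmd7 is higher in WT IL-33 than in the other libraries in clusters 0, 2, 3 and 5.

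Cluster 4 had higher core and regulatory particle sums. Against cluster 0, its core sum was 1.17-fold (1.13 to 1.21) in WT vehicle and 1.23-fold (1.17 to 1.29) in cKO IL-33, its regulatory particle sum 1.18-fold (1.13 to 1.23) and 1.22-fold (1.15 to 1.29), and its activator sum 1.01-fold (0.937 to 1.08) and 1.02-fold (0.914 to 1.13). At 1.5-fold with the interval excluding 1, 3 of 45 genes were higher in WT vehicle (Psmc1, Psmg2 and Psmc3ip) and 5 of 45 in cKO IL-33 (Psmb2, Psmb3, Psmc4, Psmg2 and Psmc3ip), beside 14.7% and 14.1% of genes. These counts moved with the processing. In thinned cells, by the ratio alone, 5 of 45 were higher in WT vehicle and 11 of 45 in cKO IL-33, beside 18.7% and 21.0% of genes, and by the mean of each cell's CPM 6 of 45 in each, beside 15.7% and 17.4%. Cells of cluster 4 were the deepest, with a median of 7711 UMIs in WT vehicle and 6530.5 in cKO IL-33. By the deposited cell-cycle phase, the proteasome sum was 3528 CPM in G1, 3652 CPM in S and 3920.2 CPM in G2M cells of WT vehicle, 3335, 3447 and 3709 CPM in cKO IL-33, and 4882, 4919.6 and 4949.8 CPM in WT IL-33. The phases of WT IL-33 lay within counting error of one another for G1 and G2M, whereas G2M was the highest in the other libraries.

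The difference in depth was set aside by thinning each cell to 3000 UMIs, which left out 353 cells of WT IL-33, 86 of cKO IL-33 and 77 of WT vehicle. A thinned cell then held a median of 15 proteasome UMIs in WT IL-33 (quartiles 11 and 18), 10 in WT vehicle (8 and 13) and 10 in cKO IL-33 (8 and 12). The upper quartile of either other library thus lay below the median of WT IL-33. Regulatory particle UMIs had medians of 6 in WT IL-33, 3 in WT vehicle and 4 in cKO IL-33, and core UMIs 6, 5 and 4. Summed over thinned cells, WT IL-33 was 1.38-fold above WT vehicle, close to the 1.35-fold of all UMIs.

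**Figure D5:**
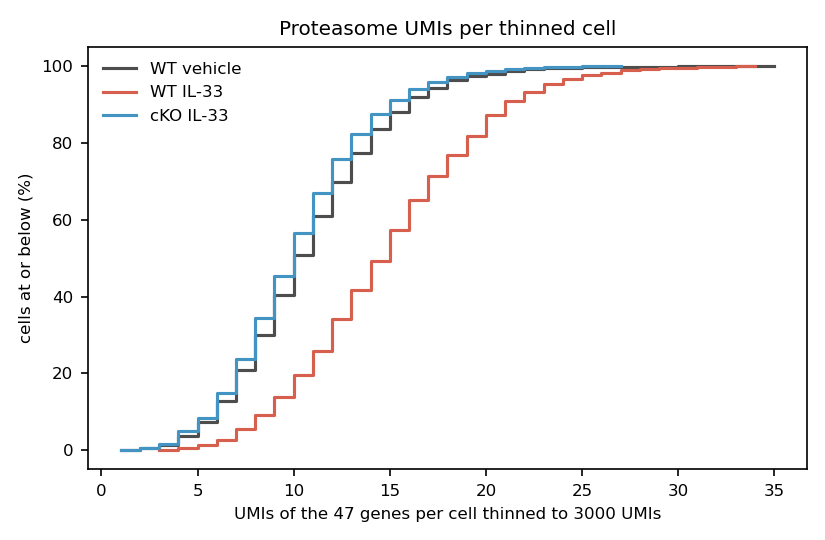
Cumulative share of cells (%) by the number of proteasome UMIs in a cell thinned to 3000 UMIs, for the 3 libraries. The WT IL-33 curve lies to the right of the other curves, with medians of 15, 10 and 10 UMIs in the order WT IL-33, WT vehicle, cKO IL-33.

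Since the libraries differed in sex, the comparisons with WT IL-33 were repeated on cells matched by Xist. Cells without Xist were not required to hold a Y-linked UMI, so female cells whose Xist was missed can be among them. For cKO IL-33 against WT vehicle no matched cells were compared. Cells with an Xist UMI were 2648 of 2687 in cKO IL-33 and 8 of 2709 in WT vehicle. In that comparison sex cannot be told apart from genotype and treatment. In cells without Xist, the proteasome sum of WT IL-33 was 1.41-fold that of vehicle, with the core at 1.23-fold and the regulatory particle at 1.63-fold. In cells with Xist and without Y-linked UMIs, cKO IL-33 was at 0.714 of WT IL-33. Within WT IL-33, male-called cells were 1.08-fold (1.06 to 1.09) above female-called cells in the proteasome sum. Psme2 was 1.18-fold (1.10 to 1.26) higher in male-called cells. Psme2b was 1.67-fold (1.20 to 2.38) lower in them, with 49 against 127 UMIs. The deposited call was female in each cell with an Xist UMI and male in each cell without one, so the 305 WT IL-33 cells with Xist and Y-linked UMIs counted as female and shallow cells can miss the call. Without those 305 cells the male-called over female-called ratio was 1.08-fold (1.06 to 1.10) for the proteasome sum and 1.18-fold (1.09 to 1.28) for Psme2, and Psme2b was 1.81-fold (1.24 to 2.65) lower. Between libraries, leaving out such cells gave 1.37-fold for the proteasome sum of WT IL-33 over vehicle. Whether these cells are doublets was not tested, and the part of sex in the difference of Psme2b between libraries was not tested beyond the matched values, 0.441-fold between WT IL-33 and vehicle and 2.09-fold between cKO IL-33 and WT IL-33.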

How the data were processed

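Droplet single-cell RNA was measured in 3 libraries, 1 per group (10x Chip G V3.1 chemistry, per the labels' protocols). Cell Ranger 5.0, Seurat 4.0.1 and the builds GRCm38 and mm10 are named, without roles, per the submitters' processing notes. One deposited table has unnormalised UMI counts for 7598 cells and 20586 genes. The second table, per the file headers, gives the library, sex call, cluster number, phase and, per cell, the percent of mitochondrial and of ribosomal UMIs. The sources used here state neither the cell filter nor any doublet removal, and no doublet caller was run. Each cell's deposited total equalled the sum of its counts.

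With Python 3.11.15 (numpy 2.4.6, scipy 1.17.1, pandas 2.3.3, figures with matplotlib 3.10.9), UMIs were summed per library, or per library and deposited cluster, and scaled to CPM. Intervals are 95% and for counting error only, exact Poisson for CPM and Clopper-Pearson on the conditional binomial for ratios. A gene counted as higher or lower when its CPM ratio reached 1.5-fold, provided that 1 of the libraries reached 10 CPM. Medians are of log2 ratios with a pseudocount of 1 CPM. Named were the 3 genes of each role with the largest ratio between WT IL-33 and WT vehicle, 10 genes named in advance for their role (Psmb5, Psmb6, Psmb7, Psmb10, Psme1, Psme2, Psme3, Psme4, Psmd4 and Psmd14), and 6 partners. Genes singled out outside this rule were chosen after their values were seen. Thinning to 3000 UMIs used a fixed seed. Gene positions and transcripts are those of GENCODE on GRCm38, near copies came from BLAST 2.17.0, and promoters from RefSeq. The fold rule and the ratio interval were tested on simulated library sums, which held counting error only and no spread between libraries. Alternatives changed the totals, centring, filter, pseudocount, cell weights, depth, phase and sex, or left out cells with both Xist and Y-linked UMIs. Those chosen after seeing the data left out cluster 4 or, between the sexes of WT IL-33, cells with Xist and Y-linked UMIs. The genes and lists were chosen with earlier results of these data known.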

Additional observations from a re-analysis of the deposited data

How the results depend on the processing

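No paired analysis was possible because each group has 1 library. Direction under the alternatives was followed for the median log2 ratios, sums by role, genes named by the rule and ratios between the sexes. Among these, no value past 1.5-fold and no median changed direction. Partners, the other genes past 1.5-fold, such as Psmd6 and Psmg1, and ratios within clusters were not followed in this way. Genes past 1.5-fold towards WT IL-33 over vehicle numbered 13 to 22 (19 as reported, beside 23.2% of all genes). There were 13 when mitochondrial and ribosomal protein genes were left out of the totals and also with a pseudocount of 10 CPM. The median log2 ratio stayed between 0.37 and 0.54. Genes at least 1.5-fold lower in cKO IL-33 than in WT IL-33 numbered 15 to 22 (20 as reported, beside 19.2% of all genes). Leaving mitochondrial and ribosomal protein genes out of the totals shifted the log2 CPM ratio of every gene by -0.087 in WT IL-33 against vehicle. The share of all genes can thus change with these settings and is not given for each, so both ranges describe the members only. The single exception, Psme2b, left the count of lower genes in WT IL-33 against vehicle at 0 with a minimum of 50 CPM or a pseudocount of 10 CPM. Likewise the count of higher genes was 0 in cKO IL-33 against WT IL-33 at the 50 CPM minimum, and 0 in cKO IL-33 against vehicle under either setting. With no minimum, 1 gene was lower in cKO IL-33 than in vehicle. For cluster 4 against cluster 0, 6 genes were higher in WT vehicle by the mean of each cell's CPM and 5 in thinned cells (3 as reported), and 11 in thinned cKO IL-33 cells (5 as reported). Of 693 other values, 615 kept within their counting interval and 78 moved beyond it. Psma3, Psmc4, Psmc5 and Psmd14 fell under 1.5-fold in WT IL-33 against vehicle without mitochondrial and ribosomal protein genes in the totals, while Psma4 passed it in thinned cells (1.52-fold). Beyond the shift of every ratio with the totals, the cause of these moves was not tested. The core sum of WT IL-33 lay between 1.11-fold and 1.23-fold of vehicle and the regulatory particle sum between 1.46-fold and 1.63-fold. The 1 library per group limits every difference, and the 59 to 144 WT IL-33 cells of clusters 0, 2, 3 and 5 limit those within clusters.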
